A study of Homo sapiens with 4 samples.

Results

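The genes described here code for core splicing factors: the SR proteins, the heterogeneous nuclear ribonucleoproteins (hnRNPs), and proteins of the small nuclear ribonucleoproteins (snRNPs) that build the spliceosome. They were chosen by gene symbol alone, from names beginning SRSF, HNRNP, SF3A, SF3B, SNRP, SNRNP, U2AF or PRPF. The name pattern took in 80 of 11597 listed genes, and 3 pseudogenes among them were left out. The 77 genes kept include 7 whose names end in P and a number only because they begin with SNRNP, and dropping those would leave 70.

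The cells were MOLM13, a human acute myeloid leukaemia line. One group of 2 libraries came from cells that overexpressed BTG2 from a lentiviral cDNA, and the other group of 2 from cells that had received the empty vector. The first group's genotype is labelled BTG2 OE and the second's WT. In both, the vector held an EF1α promoter, puromycin resistance and the fluorescent protein ZsGreen, cells were spin-infected with polybrene and collected 3 days later, and poly(A) RNA was sequenced. The labels mention neither selection nor sorting, nor whether libraries of a group came from separate cultures, so that p-values may measure technical spread alone. BTG2 is an adaptor that brings the CCR4-NOT deadenylase to messenger RNA, and the series asks about its role in mRNA stability.

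Introns are removed by the spliceosome, in which the U1 snRNP marks the start of an intron, U2AF and the U2 snRNP mark its end and branch point, and the U4/U6.U5 tri-snRNP brings the catalytic RNAs. SR proteins mostly bind exons and favour their inclusion, whereas hnRNPs coat nascent RNA and often oppose it. Many SR and hnRNP genes limit their own output through exons or introns that send the transcript to nonsense-mediated decay, and U2AF1, SRSF2 and SF3B1 are recurrently mutated in myeloid neoplasms.

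Only the authors' comparison of the groups was analysed here, with 1 log2 fold change, standard error (SE) and adjusted p per gene. A positive fold change means higher with BTG2. A gene was called when the adjusted p over all listed genes was under 0.05, levels are the authors' mean normalized counts pooled over the libraries, and values per library, their spread and depth were not analysed here. BTG2 itself stood at 5.01 (SE 0.09) by the authors' deposited table. Of the myeloid markers 9 of 10 were listed (not CD14), at mean counts of 71.6 to 6277, with 4 called lower and 0 higher, and of markers of KMT2A-rearranged leukaemia 6 of 6, with 3 called higher and 0 lower. By contrast 0 of 6 erythroid and megakaryocytic markers, 1 of 6 lymphoid markers (NKG7, called lower) and 3 of 6 fibroblast or epithelial markers (0 called) were listed, and the part of these marker changes in the results below was not tested. Since RNA was taken in bulk, a change in the share of cells with a transcript and a change per cell cannot be told apart.

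Few splicing factor transcripts changed with BTG2 overexpression, and those by small amounts. Of the 77 genes, 4 rose and 7 fell, while 66 did not pass the test. The 4 that rose were HNRNPC, HNRNPK, PRPF19 and SNRNP200, and the 7 that fell were the Sm proteins SNRPB, SNRPN and SNRPG, the SR proteins SRSF7 and SRSF9, HNRNPL and U2AF1. The largest called rise was 1.38-fold, for PRPF19, and the largest called fall was to 0.795 of the empty-vector level, for SNRPN. Against an empirical null, whose SD of 1.25 was taken from the middle of all test scores, 6 of the 11 calls held, and those of PRPF19, HNRNPC, HNRNPL, SNRPG and SRSF7 were lost. The median log2 fold change was 0.00017 over the 77 genes, against 0.00026 over all listed genes.

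The share called was 14.3% of the 77 genes, against 8.11% of all listed genes. In single directions it was 5.19% higher, against 3.64% of all genes, and 9.09% lower, against 4.47%. These shares cannot be compared directly, because splicing factors were abundant and SEs shrink with the mean count. The median mean normalized count was 836 for splicing factors and 151 for all listed genes in the authors' deposited table, and the median SE was 0.09 and 0.20. Of the 39 splicing factors at or above a mean count of 836, 8 (20.5%) were called, against 29.6% of all genes in that range. From the 90th percentile of mean count upward, 8 of 35 splicing factors passed (22.9%), against 367 of 1160 genes (31.6%). From the 75th to the 90th percentile the counts were 3 of 24 (12.5%) against 230 of 1739 (13.2%), and none of the 18 less abundant splicing factors passed. In these ranges of mean count the share called was thus not above the background. At an adjusted p under 0.01, 9 of the 77 genes were called, against 5.36% of all listed genes, and at one under 0.1 12 were, against 10.5%.

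**Figure D1:**
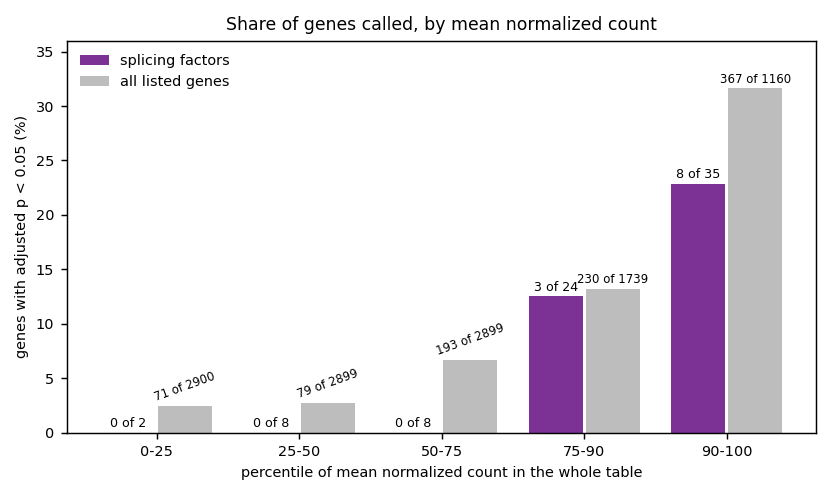
Percentage of genes with an adjusted p under 0.05 (vertical axis) by percentile of mean normalized count in the whole table (horizontal axis), for the splicing factors (purple) and all listed genes (grey), with counts above the bars. From the 90th percentile upward 8 of 35 splicing factors and 367 of 1160 genes passed, and below the 50th 0 of 10 splicing factors did.

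By the deposited SEs, precision was high enough to bound most of the genes that did not pass. These SEs may measure technical spread alone, and the intervals were not widened for the empirical null's SD of 1.25. For 62 of the 77 genes (80.5%) the whole 95% interval of the log2 fold change lay within 0.5 of 0, which held for 40.4% of all listed genes. At or above a mean count of 836 it held for all 39 splicing factors and for 91.8% of all genes. Of the 66 genes that were not called, 54 met this bound, and 33 lay within 0.25. Without adjustment, 22 of 77 had a p under 0.05 (28.6%), against 17.6% of all listed genes. At or above a mean count of 836 the share was lower than the background, 13 of 39 (33.3%) against 47.8% of all genes. The plot of fold changes by role shows the estimates with their intervals.

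**Figure D2:**
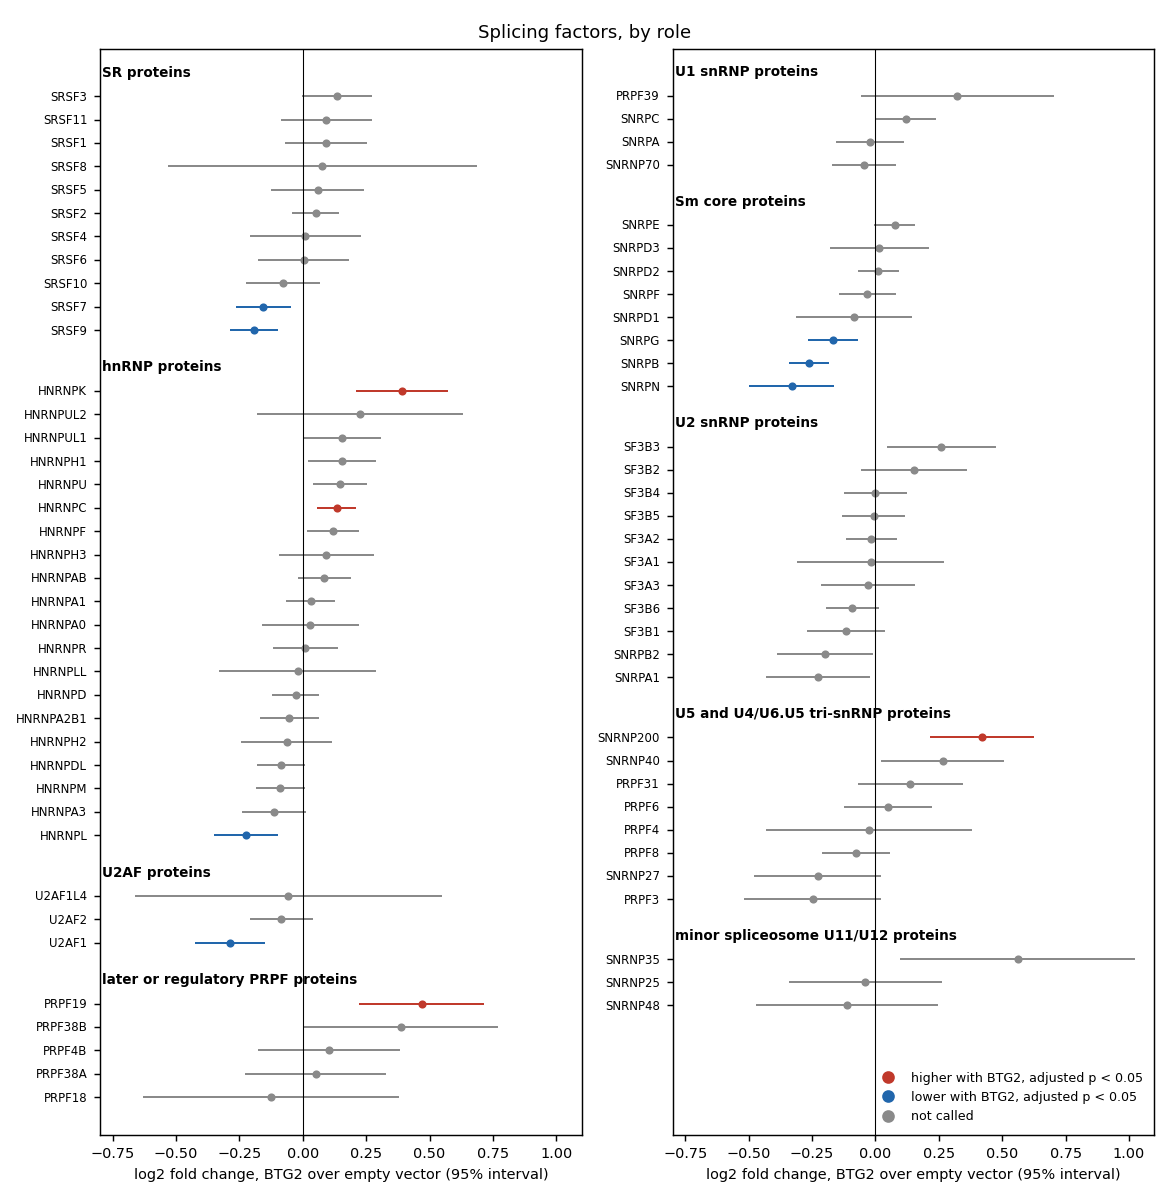
Log2 fold change of BTG2 over empty vector (horizontal axis) with its 95% interval for splicing factors grouped by role. Red points rose, blue points fell and grey points did not pass the adjusted p threshold; among the genes not drawn are HNRNPA1L2, HNRNPA1L3 and HNRNPD-DT, whose SEs were 0.68, 2.92 and 0.71.

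The SR proteins kept close to 0, apart from a pair that fell. Of 11 SR genes, 0 rose and 2 fell, with a median log2 fold change of 0.05. Thus 18.2% were called, against 8.11% of all listed genes and 13.2% from the 75th to the 90th percentile of mean count, where their median lies. Both SR genes that fell lie from the 90th percentile upward, where 31.6% of all genes were called. SRSF9, which acts in alternative splice site choice, had a log2 fold change of -0.19 (SE 0.05, adjusted p = 0.000736) at a mean count of 3836 in the authors' deposited table. It lies on chromosome 12 from 120461668 to 120469793, minus strand, in GENCODE release 29 on hg38. SRSF7, which has a zinc knuckle beside its RNA recognition motif and also serves mRNA export, stood at -0.16 (SE 0.05, adjusted p = 0.0410) by the authors' deposited table. SRSF7 lies on chromosome 2 from 38743599 to 38751494, minus strand, and its call is lost when fold changes are recentred on the median abundant gene.

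The other 9 SR genes ranged from -0.08 for SRSF10, a splicing repressor regulated by phosphorylation, to 0.13 for SRSF3, the smallest SR protein, in the authors' deposited table. SRSF2, which binds exonic enhancers, was at 0.05 with an interval from -0.04 to 0.14, and SRSF1, the founding member of the family, was at 0.09 with an interval from -0.07 to 0.25, by the authors' deposited table. SRSF6 and SRSF4 were nearest to 0, at 0.0032 and 0.01 in the authors' deposited table. The interval of SRSF8, a retrogene with a mean count of 58.3, was the widest of the family.

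All 11 SR genes carry at least 1 transcript annotated as a target of nonsense-mediated decay in GENCODE release 29, and 8 carry one annotated as a retained intron. Of all 77 splicing factors 42 (54.5%) have an annotated decay transcript, against 45.0% of listed protein-coding genes. Gene-level counts add productive and unproductive transcripts, so a change in the balance between them was not analysed here.

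Among the hnRNPs 2 genes rose and 1 fell, of 20 beside the HNRNPA1-like copies, with a median of 0.03. Thus 15% were called, against 8.11% of all listed genes and 31.6% from the 90th percentile of mean count upward, where their median lies. HNRNPK, a poly(C)-binding protein with KH domains, stood at 0.39 (SE 0.09, adjusted p = 0.000537), or 1.31-fold, with a mean count of 789 in the authors' deposited table. HNRNPC, which binds uridine tracts and keeps cryptic exons out, stood at 0.13 (SE 0.04, adjusted p = 0.00733) with a mean count of 5300 in the authors' deposited table. HNRNPC lies on chromosome 14 from 21209136 to 21269494, minus strand. HNRNPL, which binds CA-rich RNA, stood at -0.22 (SE 0.06, adjusted p = 0.00710) by the authors' deposited table and lies on chromosome 19 from 38836388 to 38852347, minus strand. Its paralogue HNRNPLL, a regulator of splicing in lymphocytes, was at -0.02 (SE 0.16) in the authors' deposited table.

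HNRNPU, a nuclear scaffold protein, missed the threshold, with 0.15 (SE 0.05, adjusted p = 0.0596) by the authors' deposited table. The G-run binding proteins HNRNPF (0.12, SE 0.05) and HNRNPH1 (0.15, SE 0.07) did not pass either in the authors' deposited table. The most abundant A/B-type gene, HNRNPA2B1, was at -0.05 (SE 0.06) and HNRNPA1 at 0.03 (SE 0.05) in the authors' deposited table, with intervals from -0.17 to 0.06 and from -0.06 to 0.12. HNRNPD, which binds AU-rich elements and affects mRNA decay, was at -0.03 (SE 0.04) and its relative HNRNPDL at -0.08 (SE 0.05) by the authors' deposited table. Over the 20 genes the lowest value was that of HNRNPL and the highest that of HNRNPK.

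Counts of HNRNPK may share reads with those of a processed pseudogene, HNRNPKP4. HNRNPK lies on chromosome 9 from 83968083 to 83980616, minus strand, and HNRNPKP4 on chromosome 3 from 96349554 to 96350939, plus strand. The pseudogene matches the coding sequence of HNRNPK at 96.5% identity over 1386 aligned bases of 1392. It was called as well, with a log2 fold change of 0.36 (SE 0.10, adjusted p = 0.00962) at a mean count of 542 in the authors' deposited table. The stretch without gaps where they differ most is shown because only differing bases can assign a read to one or the other. It covers 150 bases from base 853 of the HNRNPK coding sequence, in GENCODE release 29 transcripts, with the 12 differing bases in capitals.
HNRNPK: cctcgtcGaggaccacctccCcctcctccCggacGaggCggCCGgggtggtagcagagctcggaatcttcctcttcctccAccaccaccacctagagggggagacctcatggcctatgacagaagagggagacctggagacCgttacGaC
HNRNPKP4: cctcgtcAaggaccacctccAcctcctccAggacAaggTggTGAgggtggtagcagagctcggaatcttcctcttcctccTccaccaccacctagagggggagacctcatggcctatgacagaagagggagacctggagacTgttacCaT
Summed over both genes, the mean counts and fold changes correspond to 1505 with BTG2 and 1158 with the empty vector, a log2 ratio of 0.38 that carries no error of its own. Of the summed mean count 59.3% was assigned to HNRNPK.

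Of the Sm proteins, which form the ring on each spliceosomal snRNA, 3 of 8 genes fell and 0 rose. That is 37.5% lower, at a median mean count of 4500. Of all listed genes 4.47% were lower, and of those with a mean count at or above 836 18.9% were. In either direction 8.11% of all listed genes were called, and 31.6% from the 90th percentile of mean count upward, where the median of the 8 lies. Beside that last share, 3 of 8 is near the background. SNRPB, which codes for the B subunits of the ring, had the smallest adjusted p of the 77 genes, with a log2 fold change of -0.26 (SE 0.04, adjusted p = 5.71e-10) at a mean count of 5840 in the authors' deposited table. Its 95% interval ran from -0.34 to -0.19. SNRPN, the paralogue of SNRPB transcribed from the imprinted Prader-Willi locus, stood at -0.33 (SE 0.08, adjusted p = 0.00212) by the authors' deposited table. SNRPG, another subunit of the ring, stood at -0.17 (SE 0.05, adjusted p = 0.0104) by the authors' deposited table.

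The other 5 ring genes did not pass, among them the most abundant splicing factor by mean count, SNRPD2, at 0.01 (SE 0.04) and 8517 counts in the authors' deposited table. SNRPE was at 0.08 (SE 0.04), SNRPF at -0.03 (SE 0.06), SNRPD3 at 0.02 (SE 0.10) and SNRPD1 at -0.08 (SE 0.12) by the authors' deposited table. The intervals of SNRPD2 and SNRPE, from -0.07 to 0.09 and from -0.002 to 0.15, did not reach the estimate of SNRPB. Subunits of 1 ring thus gave different values, though the differences between genes were not tested.

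SNRPB lies on chromosome 20 from 2461634 to 2470853, minus strand, SNRPG on chromosome 2 from 70281362 to 70293771, minus strand, and SNRPN on chromosome 15 from 24823637 to 24978723, plus strand. The coding sequences of SNRPN and SNRPB, of 732 and 720 bases without the stop codon, are identical at 81.1% of 740 aligned positions. The 120 bases shown, from base 253 in SNRPN and base 241 in SNRPB, differ most among stretches aligned without gaps. They are printed because both genes fell. The pair lies below the 95% identity set here for a close match, and sharing of reads between them was not tested. Capitals mark the 22 differing bases.
SNRPN: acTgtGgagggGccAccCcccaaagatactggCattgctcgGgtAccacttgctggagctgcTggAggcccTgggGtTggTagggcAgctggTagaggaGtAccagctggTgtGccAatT
SNRPB: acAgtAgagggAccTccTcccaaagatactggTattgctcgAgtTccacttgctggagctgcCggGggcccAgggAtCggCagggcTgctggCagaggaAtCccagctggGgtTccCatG
SNRPN shares its locus and strand with SNURF and SNHG14, so reads over shared exons are uncertain. SNURF was at -0.08 (SE 0.29) with a mean count of 96.9 in the authors' deposited table, and SNHG14, the host of the locus's small nucleolar RNAs, at 0.16 (SE 0.12) with 359, neither of them called.

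U2AF, the heterodimer that reads the end of an intron, gave 1 fall among 3 genes, and the gene that fell has an identical copy. Of all listed genes 8.11% were called, and from the 90th percentile of mean count upward, where the median of the 3 lies, 31.6%. U2AF1, the subunit that contacts the AG dinucleotide, stood at -0.29 (SE 0.07, adjusted p = 0.000898) with a mean count of 1257 in the authors' deposited table. Its partner U2AF2, which binds the polypyrimidine tract, was at -0.08 (SE 0.06) with an interval from -0.20 to 0.04 in the authors' deposited table. U2AF1L4, a related gene, was at -0.06 (SE 0.31) with a mean count of 58.4 in the authors' deposited table.

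On hg38, the U2AF1 coding sequence occurs at another place on chromosome 21 as well. U2AF1 lies from 43092956 to 43107587 and the copy, ENSG00000275895 (named U2AF1L5 in GENCODE release 29), from 6484623 to 6499261, both on the minus strand. The copy carries all 720 bases of the U2AF1 coding sequence at 100% identity, so reads within it cannot be assigned to either gene. The first 90 coding bases are shown for both, in lower case throughout because 0 bases differ.
U2AF1: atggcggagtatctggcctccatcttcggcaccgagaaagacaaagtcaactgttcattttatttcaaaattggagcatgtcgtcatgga
ENSG00000275895: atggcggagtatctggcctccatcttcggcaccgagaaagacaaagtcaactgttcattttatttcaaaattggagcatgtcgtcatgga
In the authors' deposited table the copy has no symbol, a mean count of 1216 and a log2 fold change of -0.09 (SE 0.07, adjusted p = 0.567). Thus 50.8% of the summed mean count was assigned to U2AF1, and of the pair only U2AF1 was called. Summed over both, the table corresponds to 2311 with BTG2 and 2636 with the empty vector, a log2 ratio of -0.19, with no error or test.

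Leaving the Sm ring aside, proteins of the U1 and U2 snRNPs did not pass the test in any case. Of all listed genes 8.11% were called. From the 75th to the 90th percentile of mean count, where the median of the U2 genes lies, 13.2% were. From the 90th upward, where that of the U1 genes lies, 31.6% were. In sets this small, an absence of calls says little. Of 5 U1 genes, the 3 core subunits SNRPA, SNRPC and SNRNP70 were at -0.02 (SE 0.07), 0.12 (SE 0.06) and -0.04 (SE 0.06) in the authors' deposited table. PRPF39, which helps U1 engage the start of the intron, was at 0.32 (SE 0.19) by the authors' deposited table. All 11 U2 genes had intervals within 0.5 of 0, and 8 of them had negative estimates. SF3B1, which clamps the branch point, was at -0.12 (SE 0.08), with an interval from -0.27 to 0.03, in the authors' deposited table. The 3 SF3A subunits, which join the U2 particle to its branch point complex, lay between -0.03 and -0.02, and SF3B4, an RNA-binding subunit of SF3B, was at 0.00017 (SE 0.06), by the authors' deposited table. The highest of the U2 genes was SF3B3 at 0.26 (SE 0.11, adjusted p = 0.133), and the lowest were SNRPA1 at -0.23 (SE 0.10, adjusted p = 0.186) and SNRPB2 at -0.20 (SE 0.09, adjusted p = 0.225), which bind U2 RNA together, in the authors' deposited table.

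In the tri-snRNP 1 of 8 genes rose and 0 fell. Thus 12.5% were called, against 8.11% of all listed genes and 13.2% from the 75th to the 90th percentile of mean count, where their median lies. SNRNP200, the helicase that unwinds U4 from U6 RNA before catalysis, stood at 0.42 (SE 0.10, adjusted p = 0.00121), or 1.34-fold, with a mean count of 673 in the authors' deposited table. It lies on chromosome 2 from 96274336 to 96305515, minus strand, and has the longest coding sequence of the called genes, 6408 bases. PRPF8, the scaffold of the catalytic centre, was at -0.08 (SE 0.07), with an interval from -0.21 to 0.05, in the authors' deposited table. SNRNP40, another U5 protein, was at 0.26 (SE 0.12, adjusted p = 0.200) and PRPF3, which binds U4/U6, at -0.25 (SE 0.14, adjusted p = 0.345) by the authors' deposited table.

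PRPF19, the ubiquitin ligase of a complex that stabilises the active spliceosome, had the largest called rise, 0.47 (SE 0.12, adjusted p = 0.00337) at a mean count of 516 in the authors' deposited table. It lies on chromosome 11 from 60890730 to 60906588, minus strand. PRPF19 was the only call among 5 later or regulatory PRPF genes (20%), against 8.11% of all listed genes. The spliceosomal kinase PRPF4B was at 0.10 (SE 0.14) and the B-complex proteins PRPF38A and PRPF38B at 0.05 (SE 0.14) and 0.39 (SE 0.19) in the authors' deposited table. PRPF18, which acts in the second step of splicing, was at -0.12 (SE 0.26) in the authors' deposited table. Of the 3 proteins of the minor spliceosome, which removes a rare class of introns, none passed, against 8.11% of all listed genes. The one farthest from 0 was SNRNP35 at 0.56 (SE 0.23, adjusted p = 0.139) with a mean count of 94.2 in the authors' deposited table. The others, SNRNP25 and SNRNP48, were at -0.04 (SE 0.15) and -0.11 (SE 0.18) by the authors' deposited table.

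The 7 that fell all had mean counts at or above 836, whereas of the 4 that rose only HNRNPC did. The whole table leaned the same way, since 18.9% of all genes at or above 836 were called lower and 10.7% higher, against 4.47% and 3.64% of all listed genes. The plot of fold change against mean count shows HNRNPK, PRPF19 and SNRNP200 at counts of 516 to 789 in the authors' deposited table.

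**Figure D3:**
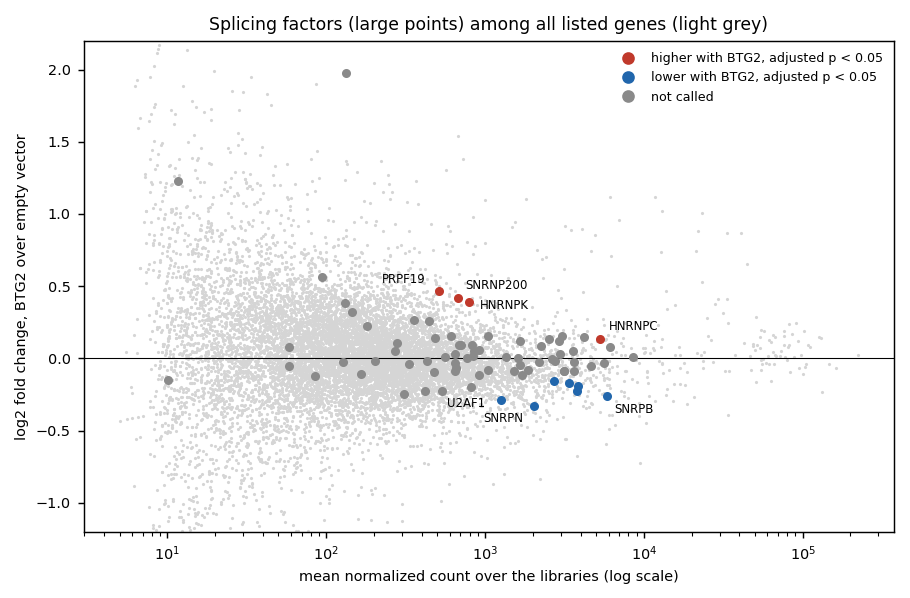
Log2 fold change of BTG2 over empty vector (vertical axis) against mean normalized count (horizontal axis, log scale) for the 77 splicing factors (large points) and all other listed genes (light grey, those beyond the vertical range not drawn). The called splicing factors lie within 0.47 of 0, and of the 4 that rose 3 have lower mean counts than any of the 7 that fell.

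The 7 splicing factor transcripts that fell had, by their median, shorter 3′ untranslated regions in the annotation. In the longest coding transcript of each gene, the median 3′ untranslated region was 174 bases for the 7 genes that fell and 674.5 bases for the 4 that rose, against 671 bases for the 75 splicing factors with a complete transcript and 959 bases for all listed genes. For protein-coding genes with a mean count at or above 836 it was 420 bases. Below 671 bases 1 of 37 splicing factors rose and 6 fell, and from 671 bases upward 3 of 38 rose and 1 fell. Over all listed genes with a complete transcript, 3.36% rose and 6.37% fell below 671 bases, and 2.96% rose and 3.77% fell from 671 bases upward. Among those with a mean count at or above 836, 19.6% of the shorter and 18.8% of the longer class fell, and 7.95% and 10.3% rose. In that range the share that fell was thus near the same in both classes. The exception among the genes that fell was SRSF7, with 1534 bases. Genes of the shorter class also had the higher median mean count, 1662 against 694, and the part of abundance in this split was not tested.

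Other genes of splicing, taken from lists of known spliceosome subunits, assembly factors and regulators, gave 16 rises and 4 falls among 194 listed genes, or 10.3% called (8.25% higher and 2.06% lower). Over all listed genes 8.11% were called, and 13.2% from the 75th to the 90th percentile of mean count, where the median of these 194 genes lies, so the share called was near the background. Their median log2 fold change was -0.0014 and their median mean count 412 in the authors' deposited table. Some genes stand in more than 1 list. The most called list by share was that of other RNA-binding splicing regulators, with 7 of 44 higher and 2 lower and a median of 0.02. That is 15.9% and 4.55%, against 3.64% and 4.47% of all listed genes. In either direction 20.5% were called, against 13.2% from the 75th to the 90th percentile of mean count, where their median lies, and 31.6% above it. Among genes at or above the table's median mean count, where 39 of the 44 lie, 6.02% were higher and 7.60% lower. The rises in this list lay between 0.18 and 0.40, among them RBM3, a cold-inducible RNA-binding protein, at 0.26 (SE 0.06) by the authors' deposited table. Its falls were PCBP1, a poly(C)-binding relative of HNRNPK, at -0.34 (SE 0.05, adjusted p = 5.34e-12), and ZFR at -0.35 (SE 0.07, adjusted p = 4.82e-05) by the authors' deposited table.

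SR-related proteins, which carry arginine-serine-rich stretches without being classical SR proteins, rose in 4 of 26 cases and fell in 0, with a median of 0.15 and 17 positive estimates. That is 15.4% called, against 8.11% of all listed genes and 13.2% from the 75th to the 90th percentile of mean count, where their median lies. The share called was thus near the background. In the single direction, 6.02% of all genes at or above the table's median mean count, where all 26 lie, were higher. SRRM2, a scaffold of nuclear speckles, stood at 0.36 (SE 0.07, adjusted p = 4.59e-05), ARGLU1 at 0.39 (SE 0.10, adjusted p = 0.00163) and the splicing activator TRA2B at 0.25 (SE 0.07, adjusted p = 0.0152) by the authors' deposited table. PNN, a speckle protein also counted in the exon junction list, stood at 0.50 (SE 0.17, adjusted p = 0.0376) by the authors' deposited table. Of the 10 listed kinases and import factors of SR proteins 0 were called, against 8.11% of all listed genes, with a median of -0.004.

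In each of the remaining lists at most 10% of genes were called, near the 8.11% of all listed genes. Of 20 other U5 and tri-snRNP genes, LSM4, a subunit of the LSm ring on U6 RNA, stood at 0.59 (SE 0.09, adjusted p = 7.2e-10) and CD2BP2 at 0.49 (SE 0.16, adjusted p = 0.0333) by the authors' deposited table. Of 20 snRNP assembly genes, CLNS1A, which hands Sm proteins to the assembly machinery, stood at 0.37 (SE 0.08, adjusted p = 0.000299) and STRAP, a partner of the SMN complex, at -0.25 (SE 0.07, adjusted p = 0.0132) by the authors' deposited table. SUGP2 was the only call among 16 other U2 and branch site genes, at 0.59 (SE 0.17), and TFIP11, which helps take the spliceosome apart, the only one among 25 later spliceosome factors, at 0.50 (SE 0.17), in the authors' deposited table. HSPA8, the constitutive heat shock cognate and the only call among 19 genes of PRPF19-related complexes, stood at -0.30 (SE 0.04) in the authors' deposited table. None of 11 minor spliceosome genes was called, and 1 of 10 exon junction genes was, namely PNN.

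**Figure D4:**
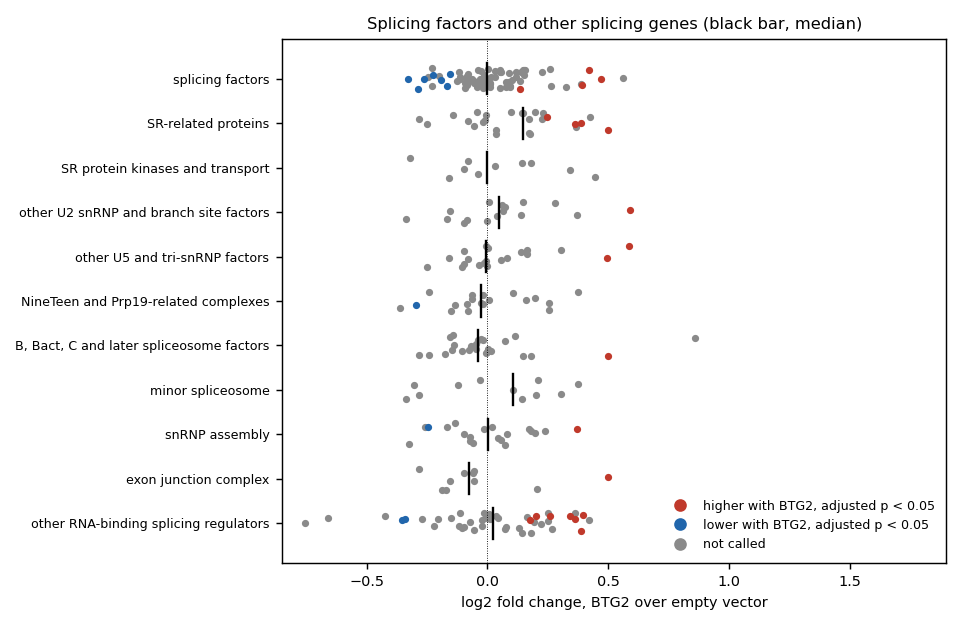
Log2 fold change of BTG2 over empty vector (horizontal axis) for the splicing factors and for each list of other splicing genes (rows), with 1 point per gene and the median as a black bar; HNRNPA1L2, HNRNPA1L3 and HNRNPD-DT are not drawn but enter the median. The median lies at 0.00017 for the splicing factors and at 0.15 for the SR-related proteins. Of these 4 of 26 rose, a share called near that of genes with similar mean counts.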

How the data were processed

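Poly(A) RNA of MOLM13 cells was compared between 2 BTG2 and 2 empty-vector libraries, grouped by their titles. The labels' protocols describe a directional kit with paired reads of 150 bp, whereas the series title speaks of long reads, and which of them was used for the values is unknown. The tool minimap2 and the build hg38 are named, per the submitters' processing notes, with no version or role.

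One table of the authors' comparison was used. Its mean normalized count, a signal pooled over libraries, its log2 fold changes and SEs, its test score (fold change over SE) and its p-value and adjusted p-value are as deposited by the authors. The sources used here give no program, normalization, filter or use of strand. Benjamini-Hochberg adjustment of the p-values gave the adjusted ones within 1.48e-06. Depth per library is unknown, and no test was added.

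The genes and lists were chosen with earlier results of these data known. All called members were named, with the extremes of each role among genes at or above the table's median mean count and up to 3 called genes of each other list by absolute score. Further members were chosen after their values were seen, and the values of 1 gene are not reported here, though it is kept in the counts and medians. Bins of mean count and the split by 3′ untranslated region were also chosen then. Intervals at the 95% level are the fold change plus or minus a normal multiple of its SE. Annotation came from the longest complete coding transcript in GENCODE release 29 on GRCh38 (hg38), matched by Ensembl identifier for 98.3% of genes and all 77 members. The coding sequences of 75 members were searched against its transcripts with BLAST 2.17.0, keeping matches of at least 95% identity over 50% of the sequence. Summed values of gene pairs took the mean count as the average of both groups. The calling step was also run on simulated scores whose noise was drawn with the deposited SEs. Such a run cannot show whether those SEs are too small. Python 3.11.15, numpy 2.4.6, pandas 2.3.3 and scipy 1.17.1 were used.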

Additional observations from a re-analysis of the deposited data

How the results depend on the processing

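Without values per library, leaving out each replicate in turn was not run. No paired analysis was possible because the comparison has no columns per library. With a minimum absolute log2 fold change of 0.5, 0 splicing factors were called in either direction, with 222 genes higher and 166 lower over the table, and of the other splicing genes 3 were called, 3 higher and 0 lower. An empirical null with an SD of 1.25, fitted to the central scores, left 2 splicing factors higher and 4 lower (HNRNPK and SNRNP200, and SNRPB, SNRPN, SRSF9 and U2AF1), 209 and 262 genes in the table, and 10 other splicing genes, 7 of them higher. At an adjusted p under 0.01, 281 genes were higher and 341 lower in the table and 12 other splicing genes were called, 9 of them higher, while 9 of the 11 splicing factors kept their call, all but SNRPG and SRSF7. Of the other splicing genes 10 were lower at an adjusted p under 0.1 and 8 when genes below the table's median mean count were left out of the adjustment. Under both of these settings HNRNPU joined the 11. Recentring added 0.03 to each fold change and left 11 splicing factors called, with HNRNPU in and SRSF7 out. It turned the sign of 6 genes that were not called, to 0.0069 for HNRNPLL, 0.00081 for PRPF4, 0.0083 for SF3A1, 0.0106 for SF3A2, 0.0194 for SF3B5 and 0.0048 for SNRPA. Among alternatives chosen after seeing the data, leaving out the SNRNP-numbered genes gave 3 higher and 7 lower. Without the 6 genes that have a close match among listed genes, 3 were higher and 5 lower. Of the called genes HNRNPK, U2AF1 and SNRPN drop out, SNRPN for its overlap with SNURF. The cause of these changes was not tested. Every call rests on 2 libraries per group.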

Other observations

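The HNRNPA1 family shows how little the rows of its copies can carry. HNRNPA1L3, a copy with 2 annotated exons, had a mean count of 133 and a log2 fold change of 1.98 with an SE of 2.92 in the authors' deposited table, and HNRNPA1L2 a mean count of 11.7 and 1.23 (SE 0.68). The pseudogenes HNRNPA1P7 and HNRNPA1P10 were at -0.19 (SE 0.40) and -0.33 (SE 0.54) in the authors' deposited table, neither of them called. Over 752 aligned bases they match HNRNPA1 at 99.5% and 99.6% identity. HNRNPD-DT, a non-coding transcript that starts opposite HNRNPD, had a mean count of 10.2 and stood at -0.15 (SE 0.71) by the authors' deposited table. In all, 16 of the 75 genes searched have a close match in the annotation, and for 6 of them a match is listed in the table. Not every match is a separate copy, since that of SNRPN is the overlapping SNURF and that of HNRNPUL2 is HNRNPUL2-BSCL2.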
